A study of Homo sapiens with 3 samples.

Results

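The 563 SOX4 binding summits on human chromosome 9 are described here, out of 7511 summits in the whole genome. They are every position listed on that chromosome in 3 chromatin immunoprecipitation sequencing (ChIP-seq) libraries, and neither score nor sharing was used to choose them. Replicate 1 held 96 of them in a list of 1368, replicate 2 held 124 of 1713, and replicate 3 held 343 of 4430. All 3 libraries come from BT549, an established line of human triple-negative breast cancer cells, with the labels giving passage 5, and no treatment or genetic change is labelled. They form 1 group, and the labels do not say whether they came from separate cultures, so the spread between them may be technical. Neither an input nor an IgG library was used here, and read depth is unknown, so intervals cover counting error only. A summit is the single base where the authors' peak caller placed the top of a peak, and its score is the authors' −log10 of a p or q value, used here to describe and rank summits within a list. Positions are on GRCh38.

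SOX4 is a transcription factor of the SOX family, whose high-mobility-group domain binds the minor groove of DNA at short AT-rich sequences and bends it. It is known in breast cancer for its part in TGF-beta signalling and in the change from epithelial to mesenchymal states. Chromosome 9 carries the CDKN2A tumour suppressor, the type I interferon cluster and the JAK2 and CD274 genes on its short arm (9p), a large block of repeat-rich heterochromatin beside the centromere with many recently duplicated gene families around it, and a gene-rich long arm (9q).

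The promoters below belong to 6 of the 10 genes on the arms with summits of all 3 libraries in 1 region at a gene end, and were taken for the shortest distance from the region's midpoint to that end. They run from 250 bases before the RefSeq start to 30 bases after it, are read 5′ to 3′ on the gene's own strand, and come from the RefSeq promoter table of GRCh38.p14. Capitals mark matches, on either strand, to the motifs CTCGCGAG (the CGCG element), CCGGAAG (ETS family), CCAAT (NFY), GGGCGG (SP family) and AAGATGGC (YY1). UHRF2, a ubiquitin ligase that reads modified cytosine, lies on the plus strand with this window at chr9:6412949-6413228. EXOSC3, a subunit of the RNA exosome, is on the minus strand at chr9:37785063-37785342. SLC25A51, the mitochondrial carrier of NAD, is on the minus strand at chr9:37904098-37904377. SECISBP2, which binds the selenocysteine insertion element of messenger RNAs, is on the plus strand at chr9:89318250-89318529. ERCC6L2, a helicase-like protein of DNA repair, is on the plus strand at chr9:95875441-95875720. PSMD5, an assembly chaperone of the proteasome, is on the minus strand at chr9:120842893-120843172.
UHRF2: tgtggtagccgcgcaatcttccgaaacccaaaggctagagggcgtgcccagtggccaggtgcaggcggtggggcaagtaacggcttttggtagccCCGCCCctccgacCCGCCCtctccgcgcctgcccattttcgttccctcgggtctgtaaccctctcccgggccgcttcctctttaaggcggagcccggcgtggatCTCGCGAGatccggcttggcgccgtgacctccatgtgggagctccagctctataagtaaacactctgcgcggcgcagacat
EXOSC3: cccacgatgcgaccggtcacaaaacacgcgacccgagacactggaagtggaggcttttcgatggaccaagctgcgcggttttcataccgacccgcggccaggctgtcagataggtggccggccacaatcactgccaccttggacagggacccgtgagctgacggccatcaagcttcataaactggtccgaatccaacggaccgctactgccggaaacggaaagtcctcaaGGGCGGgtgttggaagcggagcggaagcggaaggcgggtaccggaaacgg
SLC25A51: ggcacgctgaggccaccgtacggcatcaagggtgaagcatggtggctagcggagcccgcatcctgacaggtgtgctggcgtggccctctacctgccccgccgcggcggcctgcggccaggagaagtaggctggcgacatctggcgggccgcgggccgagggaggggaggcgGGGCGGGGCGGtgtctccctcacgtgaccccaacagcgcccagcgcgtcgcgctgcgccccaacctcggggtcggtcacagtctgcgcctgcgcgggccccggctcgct
SECISBP2: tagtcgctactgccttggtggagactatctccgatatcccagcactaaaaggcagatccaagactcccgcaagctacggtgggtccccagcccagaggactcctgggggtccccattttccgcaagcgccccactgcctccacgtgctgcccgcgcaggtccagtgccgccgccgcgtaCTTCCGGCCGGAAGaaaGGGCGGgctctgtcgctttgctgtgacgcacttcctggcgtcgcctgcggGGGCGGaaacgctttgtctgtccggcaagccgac
ERCC6L2: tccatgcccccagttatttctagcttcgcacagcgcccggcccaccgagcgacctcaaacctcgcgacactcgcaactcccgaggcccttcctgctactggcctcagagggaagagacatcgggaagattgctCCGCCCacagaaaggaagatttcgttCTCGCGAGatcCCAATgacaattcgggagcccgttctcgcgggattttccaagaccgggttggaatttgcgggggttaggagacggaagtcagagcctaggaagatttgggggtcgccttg
PSMD5: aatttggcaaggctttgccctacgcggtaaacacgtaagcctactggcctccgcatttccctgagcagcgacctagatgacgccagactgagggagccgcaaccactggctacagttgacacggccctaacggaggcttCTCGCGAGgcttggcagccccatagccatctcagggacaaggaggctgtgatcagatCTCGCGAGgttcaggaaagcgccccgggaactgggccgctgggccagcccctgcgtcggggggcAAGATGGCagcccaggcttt
UHRF2, ERCC6L2 and PSMD5 hold the CGCG element, PSMD5 at 2 places, and the other three do not. Neither of the SOX motifs searched (AACAAAG and AACAATG) is in any of the 6 windows.

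Chromosome 9 held 7.59% of the summits of replicate 1 on assembled chromosomes (exact 95% binomial interval 6.19 to 9.20), 7.81% of replicate 2 (6.54 to 9.24) and 7.97% of replicate 3 (7.18 to 8.82). The mean was 7.79 ± 0.188% (SD, n = 3), beside a median over the other autosomes of 2.85%, 2.20% and 2.95%. In summits per megabase, chromosome 9 ranked 2 among the 22 autosomes in every library. Its median scores held no fixed place, ranking 12, 19 and 4 among the 22 autosomes. They were 5.98, 5.16 and 5.69, beside 5.98, 5.71 and 5.47 for the median of the other autosomes. Of the chromosome 9 summits, 9.38%, 3.23% and 6.12% scored above 10, against 19.2%, 12.7% and 6.06% on the other chromosomes, so strong summits were a smaller share in replicates 1 and 2 and an equal one in replicate 3. Joining summits of all libraries at gaps of at most 200 bp gave 477 regions on chromosome 9, of which 67 (14.0%) were seen in at least 2 libraries and are called reproducible below; there were 45, 30 and 25 on leaving out replicates 1, 2 and 3 in turn. That share was near the 14.5% of the 5534 regions on other chromosomes. An end of a protein-coding gene was no more than 1 kb away for 32.7% of the chromosome 9 regions, against 48.2% on other chromosomes.

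The comparison of the chromosome's parts asked where its summits lie. The short arm, below 38 Mb, held 39, 37 and 143 summits in replicates 1, 2 and 3. The pericentromere, from 38 to 70 Mb, held 31, 53 and 99. The long arm, which is 68.3 Mb long and has 535 of the 778 coding genes, held 26 in replicate 1, 34 in replicate 2 and 161 over all 3. Thus the arm with most of the genes had the fewest summits per length in every library. The density on 9p was 1.03, 0.974 and 3.76 summits per Mb, on 9q 0.380, 0.498 and 1.48, and in the pericentromere 0.969, 1.66 and 3.09. The 9p density was above the 9q density in 3 of 3 libraries, by 2.70, 1.96 and 2.55 times. The mean difference was 1.14 ± 0.999 summits per Mb (SD, n = 3; exact sign-flip permutation test over libraries, two-sided p = 0.25, the smallest that 3 libraries can give). Without replicate 3 it was 0.561. With summits at or above the median score of their list it was 0.540, and with the 1000 highest scores 0.251, and under both replicate 2 had 9q slightly above 9p, with a difference of -0.0558 per Mb.

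**Figure D1:**
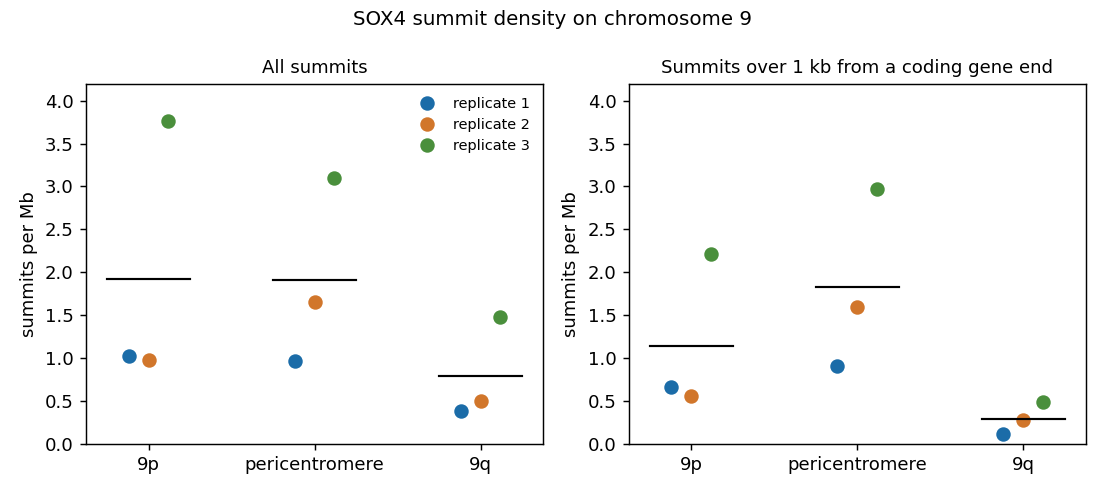
SOX4 summits per Mb (y axis) in the 3 parts of chromosome 9 (x axis), for all summits (left) and for distal ones (right). Each point is 1 library and each bar is the mean of 3, and in every library the 9q point is the lowest of the 3 parts in both panels.

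The surplus lay mostly away from coding gene ends, though not always outside genes. Of all 191 regions on 9p, distal or not, 114 lay inside a coding gene. Summits that lie further than 1 kb from any coding gene end, called distal here, had a density on 9p of 0.658, 0.553 and 2.21 per Mb. On 9q it was 0.117, 0.278 and 0.483 per Mb, where the median of the autosomes other than chromosome 9 was 0.155, 0.182 and 0.478. In this measure 9q was therefore close to an ordinary autosome in replicate 3, below it in replicate 1 and above it in replicate 2. The pericentromere had 0.906, 1.59 and 2.97 distal summits per Mb. The difference in distal density between 9p and 9q was 0.848 ± 0.774 per Mb and that between the pericentromere and 9q was 1.53 ± 0.868 (SD, n = 3; exact sign-flip permutation p = 0.25 for each, higher in 3 of 3 libraries). The 9p difference was 0.408 without replicate 3, 0.388 with summits at or above the median score and 0.129 with the 1000 highest scores. No coding gene lies between 43139881 and 60832661, the 17.7 Mb that hold the heterochromatic block, and 5 of the summits fell there. No region lay in the 16.7 Mb from 43918849 to 60636872. How much of this stretch reads can be mapped to was not examined, so the low count was not read as little binding. The pericentromere densities above include its length. All summits of the pericentromere, these 5 included, divided by its other 14.3 Mb gave 2.17, 3.70 and 6.92 per Mb. The density over those 14.3 Mb alone was therefore somewhat lower.

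Nearness to gene ends differed in the same way. Gene ends were within 1 kb for 69.2%, 44.1% and 67.3% of the 9q summits, against 35.9%, 43.2% and 41.3% on 9p and 6.45%, 3.77% and 4.04% in the pericentromere. In replicate 2 the 2 arms were nearly alike, with a difference of -0.874 percentage points, and the mean difference of -20.1 ± 17.0 points rests on replicates 1 and 3 (SD, n = 3; exact permutation p = 0.25). Those with no coding gene end for 50 kb made up 38.5%, 35.1% and 39.2% on 9p, 67.7%, 73.6% and 77.8% in the pericentromere and 7.69%, 20.6% and 10.9% on 9q. Counted per gene, 9p was still the richer arm. It had 6.83, 7.80 and 28.8 summits at gene ends per 100 coding genes, against 3.36, 2.80 and 12.7 on 9q.

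**Figure D2:**
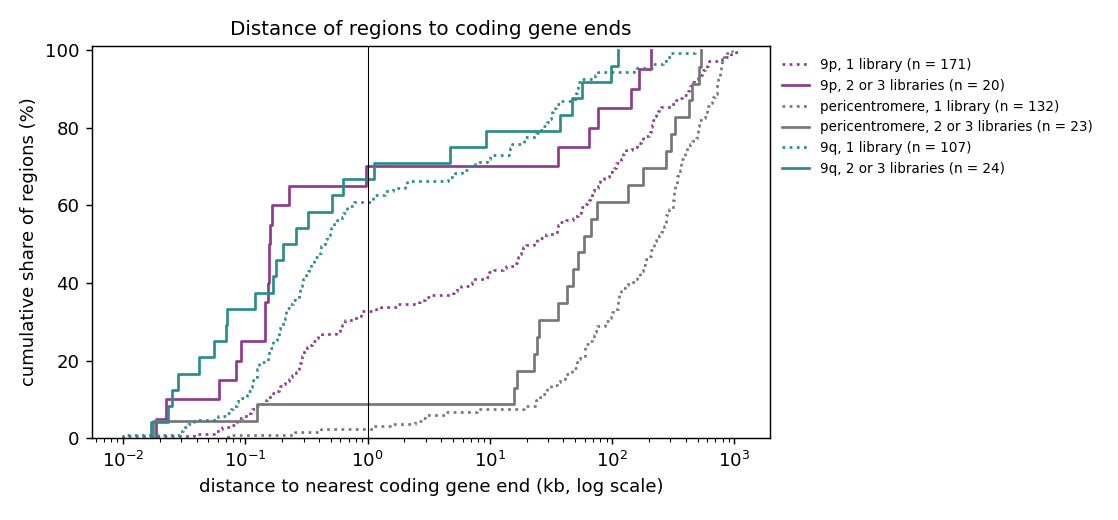
Cumulative share of regions (y axis, %) by the distance from their midpoint to the nearest coding gene end (x axis, kb, log scale), for regions of 1 library (dotted) and of 2 or 3 libraries (solid) in each part. At the 1 kb line the 9p curves part, at 70% for the 20 reproducible regions and 32.7% for the 171 of 1 library, and the 9q curves lie at 66.7% and 60.7%.

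A smaller share of summits was shared on 9p than on 9q, while 9p and the pericentromere had no fixed order. A summit of another library lay within 200 bp for 38.5%, 37.8% and 13.3% of the 9p summits, against 50.0%, 58.8% and 20.8% on 9q and 32.3%, 37.7% and 21.2% in the pericentromere. The 9p share was lower than the 9q share in 3 of 3 libraries, by 13.3 ± 6.92 points on average (SD, n = 3; exact permutation p = 0.25). The mean difference was -4.60 points without replicate 2 and -6.84 without replicate 3. Among distal summits alone, 16.0%, 23.8% and 7.14% were shared on 9p and 37.5%, 36.8% and 24.2% on 9q. Distal 9p regions were reproducible in 6 of 121 cases (4.96%), against 21 of 150 (14.0%) in the pericentromere and 8 of 50 (16.0%) on 9q. Regions within 1 kb of a gene end were reproducible at nearly the same share on both arms, 14 of 70 (20%) on 9p and 16 of 81 (19.8%) on 9q. Replicate 3 alone supplied 124 of the 191 regions of 9p, 78 of the 155 of the pericentromere and 80 of the 131 of 9q. Median scores did not separate the arms, at 6.25, 4.65 and 5.69 on 9p and 5.91, 5.60 and 5.46 on 9q. Without replicate 2 the mean difference in median score changed sign, from -0.126 to 0.284. Across the chromosome, shared summits had higher scores than unshared ones, with medians of 7.23, 6.07 and 7.20 for the shared and 5.21, 4.65 and 5.48 for the unshared.

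The spacing of regions depended on the distance taken. Another region lay within 10 kb for 22.0% of the regions on 9p, 47.7% in the pericentromere and 24.4% on 9q. Within 100 kb there was one for 142 of the 191 on 9p (74.3%), 143 of 155 in the pericentromere (92.3%) and 78 of 131 on 9q (59.5%). The fullest 1 Mb window was in the pericentromere at 41 to 42 Mb, with 32 regions, 7 of them reproducible, followed there by 62 to 63 Mb with 26 regions. On 9p the fullest windows were 37 to 38 Mb with 15 regions, 21 to 22 Mb, which holds the interferon cluster and CDKN2A, with 13, and 26 to 27 Mb with 11. No 9q window held more than 6. On 9q no region fell in the 4.82 Mb between 115895438 and 120714918, which hold PAPPA, ASTN2 and the receptor gene TLR4, and on 9p none fell in the 3.75 Mb from 7799659 to 11549466, around PTPRD.

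All 3 libraries placed a summit in 19 regions, 8 on 9p, 5 in the pericentromere and 6 on 9q. On 9p, 6 of the 8 lay at gene ends. The UHRF2 region at chr9:6413141-6413220 scored 7.24, 3.99 and 5.43 in replicates 1, 2 and 3. SNAPC3, a subunit of the complex that starts small nuclear RNA transcription, had scores of 5.83, 3.09 and 7.71 at chr9:15422614-15422833. PSIP1, a chromatin-tethering protein, scored 7.40, 3.44 and 5.69 at chr9:15510780-15510993. These are modest scores, each below the median of its list in at least 1 library. EXOSC3 scored 4.55, 6.55 and 4.71, and SLC25A51 scored 3.61, 4.65 and 8.04. DMRTA1, which encodes a DM-domain transcription factor, scored 7.70, 5.21 and 6.77 at chr9:22446944-22447017. The other two 9p regions were distal. One lay 35.9 kb from the GLDC gene at chr9:6681573-6681648, with scores of 16.0, 5.03 and 6.26. The other lay inside BNC2, a zinc finger gene, 165 kb from its nearer end, with scores of 6.40, 5.61 and 4.69.

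On 9q, 4 of the 6 regions of all libraries lay at gene ends, and these include the highest scores of the chromosome. ERCC6L2 scored 28.8, 22.3 and 7.42 at chr9:95875640-95875659, where the 3 summits fell within 20 bases of each other. PSMD5 scored 26.5, 4.58 and 3.34, and SECISBP2 scored 3.79, 4.04 and 22.3. Scores were not compared between the lists, whose depths are unknown. SMC5, a subunit of the SMC5-SMC6 complex of chromosome repair, scored 7.22, 8.39 and 7.94. The remaining regions lay inside CCDC183, with 6.80, 9.34 and 15.3, and inside EHMT1, a histone methyltransferase gene, 97.3 kb from its nearer end, with 7.47, 9.10 and 8.24.

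**Figure D3:**
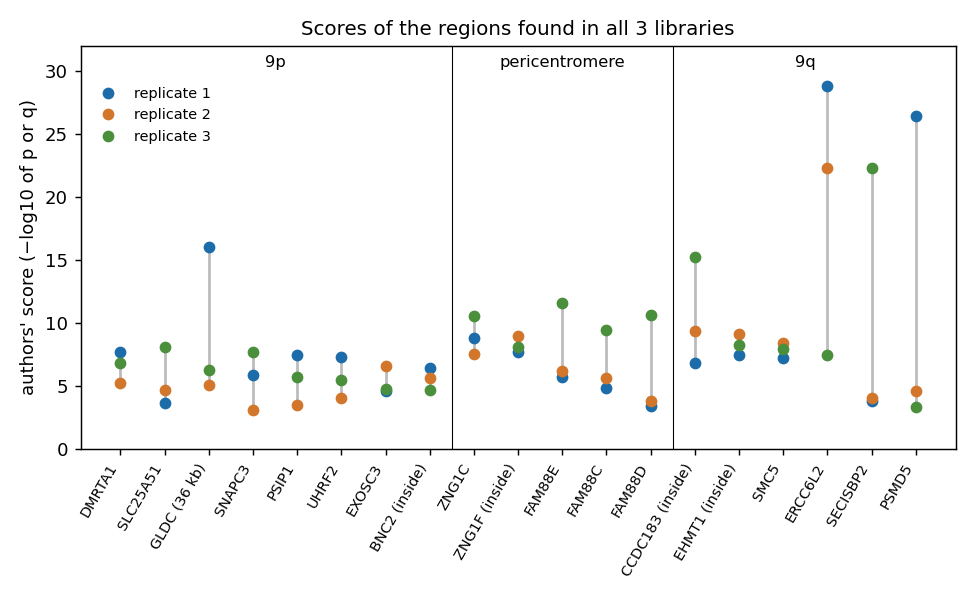
Scores (y axis, −log10 p or q as deposited) of the 19 regions of chromosome 9 with a summit in all 3 libraries (x axis, nearest or holding gene), with 1 point for each library. ERCC6L2 stands out with 2 libraries above 20, while PSMD5 and SECISBP2 have only 1 library each above 20.

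Regions of 2 libraries lay within 1 kb of an end of further genes, among them DMAC1, BRD10 and TOMM5 on 9p and ZFAND5, FBXW2 and ZBTB26 on 9q, and the following. On 9p the cell cycle inhibitor gene CDKN2B had summits in replicates 1 and 3, scoring 5.46 and 8.77, at chr9:22009161-22009175. RPS6, a protein of the small ribosomal subunit, had summits in the same libraries, scoring 6.54 and 4.26. CAAP1, an apoptosis regulator gene, had 6.12 and 9.76 there. On 9q, RC3H2, an RNA-binding ubiquitin ligase gene, had 16.9 and 12.4 in replicates 1 and 2, at chr9:122905370-122905382. The divergent pair HNRNPK and RMI1, an RNA-binding protein and a partner of the BLM helicase, had 11.4 and 9.76 in the same libraries, at chr9:83980536-83980647. FANCC, of the Fanconi anaemia repair complex, had 8.03 and 13.6 in replicates 1 and 3. NAA35, a subunit of an N-terminal acetyltransferase, had 5.5 and 8.02 in replicates 1 and 2. The remaining library had no summit in these regions, but replicate 3 had one outside the region within 1 kb of a start of RC3H2 (offset 247 bp, score 12.6), NAA35 (-177 bp, 5.83), HNRNPK (357 bp, 6.09) and RMI1 (97 bp, 5.00). For CDKN2B, RPS6 and FANCC, replicate 2 had none within 5 kb.

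The pericentromere's reproducible regions were of another kind, with 2 of 23 (8.70%) within 1 kb of a coding gene end. Several lay at duplicated families, which were named after their values were seen. Long noncoding RNA genes of the FAM88 family had a summit within 1 kb of the start in all 5 members on the chromosome, and FAM88C, FAM88D and FAM88E had all 3 libraries. FAM88E scored 5.69, 6.13 and 11.6, FAM88D 3.36, 3.79 and 10.6, and FAM88C 4.85, 5.59 and 9.44. FAM88F and FAM88B had replicate 3 alone, at 9.0 and 8.20. For other families the gene span was also used. A summit lay in the span or within 1 kb of it for all 3 CDK2AP2P pseudogenes, 2 of 3 CNTNAP3 genes, 2 of 6 FGF7P pseudogenes, 1 of 5 FOXD4 genes and 0 of 5 SPATA31A genes. The summits of the 2 FGF7P pseudogenes are the same ones as those of FAM88C and FAM88D. No share over all genes of such kinds is given beside the family counts, so they are a description only. At start sites, no FOXD4, CNTNAP3 or SPATA31A gene with a start in the table had one within 1 kb.

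The ZNG1 genes, which encode zinc metallochaperones, had 3 pericentromeric members with summits of every library within 1 kb of the start. ZNG1C scored 8.77, 7.54 and 10.5, ZNG1F 7.69, 8.93 and 8.11, and ZNG1E 11.1, 4.82 and 15.8. ZNG1A, at the tip of 9p, had none, and its nearest summit was 528 kb away. ZNG1B, the copy on chromosome 2, had none either, with the nearest 88.0 kb from the gene. The promoters of ZNG1C (plus strand, chr9:68241733-68242012) and ZNG1A (minus strand, chr9:178997-179276), from 250 bases before to 30 after the start, are shown because a summit was listed at one and not at the other. Capitals mark GGGCGG (SP family) and TGACGTCA (CRE), on either strand.
ZNG1C: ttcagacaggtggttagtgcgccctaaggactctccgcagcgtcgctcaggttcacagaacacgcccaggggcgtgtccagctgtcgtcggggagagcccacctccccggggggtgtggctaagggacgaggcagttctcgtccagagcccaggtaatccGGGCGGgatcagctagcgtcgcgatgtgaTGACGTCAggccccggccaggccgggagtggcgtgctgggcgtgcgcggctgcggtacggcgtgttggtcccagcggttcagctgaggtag
ZNG1A: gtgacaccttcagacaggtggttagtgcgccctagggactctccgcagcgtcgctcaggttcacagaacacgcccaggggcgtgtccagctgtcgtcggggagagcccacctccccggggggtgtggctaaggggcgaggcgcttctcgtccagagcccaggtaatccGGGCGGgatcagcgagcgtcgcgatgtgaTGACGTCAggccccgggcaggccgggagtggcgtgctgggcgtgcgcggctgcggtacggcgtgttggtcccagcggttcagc
Both windows hold both motifs. Aligned over these windows with gaps counted, ZNG1A and ZNG1C were 92.4% identical, with 6 mismatches, and the windows are offset by a different start. ZNG1C and ZNG1E were 99.6% identical, with 1 mismatch, and reads from identical stretches cannot be told apart. The sources used here do not say how the authors placed reads that match several copies, and the counts at ZNG1 and FAM88 copies are uncertain for that reason.

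Around start sites the summits lay close in. Within 1 kb of a coding start site were 38.5%, 29.8% and 40.2% of the chromosome 9 summits, and 86.5%, 83.8% and 74.6% of those were within 300 bp. Their median offset was -32 bp in replicate 1, 41 bp in replicate 2 and 89.5 bp in replicate 3, where positive means downstream of the start. Replicate 3 thus lay furthest into the gene, with 63.8% of these summits downstream against 43.2% in replicate 1. At ERCC6L2 the offsets were -32, -51 and -32 bp, and at UHRF2 14, -58 and 21 bp.

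**Figure D4:**
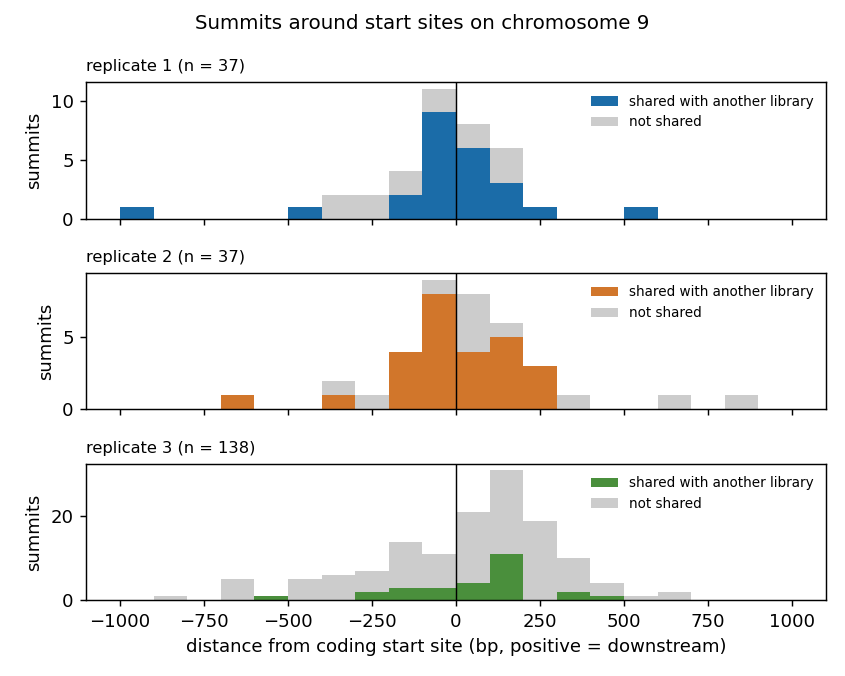
Offsets (x axis, bp, negative upstream) of the chromosome 9 summits within 1 kb of a coding start site, by library. The median offsets are -32, 41 and 89.5 bp in replicates 1, 2 and 3, and most summits lie within 300 bp of the start.

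The CGCG element stood out among the motifs searched in promoter windows of 300 bases, from 250 before the start to 50 after it. It was chosen after the promoters of the 3-library genes had been read, so its counts are a description with no test. The element, a palindrome, is known from CpG island promoters of housekeeping genes and is bound by the protein BANP. It was in 306 of the 22199 coding promoters (1.38%) and 16 of the 964 on chromosome 9 (1.66%). Among the 65 chromosome 9 promoters that held a summit it was in 10 (15.4%), and on other chromosomes in 110 of 968 (11.4%). The share was larger where more libraries placed a summit in the window. On chromosome 9 it was 0.667% of 899 promoters with none, 8.51% of 47 with 1, 20% of 15 with 2, and 3 of 3 with all libraries. On other chromosomes the same steps gave 0.888%, 7.76%, 31.1% and 50.0%, so the same order held there. The 3 of 3 on chromosome 9 are UHRF2, ERCC6L2 and PSMD5. The element was chosen from these promoters, so that share was fixed by the choice. EXOSC3, SLC25A51 and SECISBP2, which lack the element, have a summit of 1 library outside the window, at 85, 51 and 68 bp downstream of the start.

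The 10 promoters were those of UHRF2, ERCC6L2, PSMD5, RC3H2, NAA35, FANCC, RPS6, SAXO1 and the divergent HNRNPK and RMI1, which share 1 summit. By library, the element was in 10 of 25 promoters with a summit of replicate 1 (40.0%), 5 of 16 of replicate 2 (31.3%) and 4 of 45 of replicate 3 (8.89%). Replicate 3 was the lowest on other chromosomes too, at 3.67% against 29% and 29.2%. These shares, and the number of libraries per promoter, leave out summits more than 50 bases downstream of the start. In replicate 3 the median offset of start-site summits on chromosome 9 was 89.5 bp, so many of them were left out. Where the element was present the median score on chromosome 9 was 9.71, 8.02 and 6.42 in the 3 libraries, and where it was absent 5.83, 4.74 and 5.46. The summits lay at a median of 24, 10 and 61.5 bp from the element, over 9, 5 and 4 summits.

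**Figure D5:**
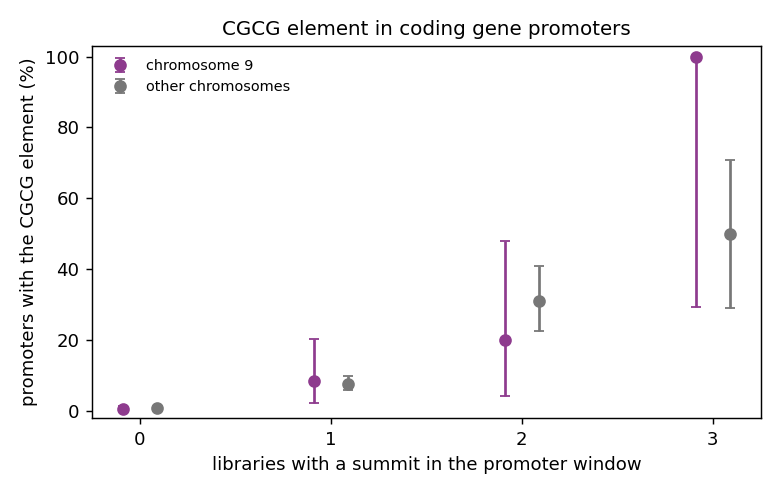
Share of coding promoters with the CGCG element (y axis, %) by the number of libraries with a summit in the window (x axis), for chromosome 9 and the other chromosomes, with exact 95% binomial intervals. On chromosome 9 the share goes from 0.667% with no library to 20% with 2. The 3 of 3 promoters with all libraries are ones that the element was chosen from.

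The SOX motifs were rare in these windows. AACAAAG was in 3 of the 65 chromosome 9 promoters with a summit (4.62%), against 4.30% of all coding promoters, and AACAATG in 1.54% against 2.51%. GGGCGG was in 83.1% against 56.3%, CCGGAAG in 24.6% against 12.8%, and CCAAT in 13.8% against 34.7%. The windows with a summit were also richer in G and C, with a median of 68.3% against 62.3% over all coding promoters, and the part of base composition in these motif shares was not tested. GGAATG (TEAD) was in 1.54% against 12.2%, and TGANTCA (AP-1) in none of the 65 against 6.15%. GCGCATGCG (NRF1) was in 1 of the 65 (1.54%) against 2.36%, but in 4.75% of the 968 on other chromosomes. TGACGTCA was in 4.62% against 2.26%, and AAGATGGC in 4.62% against 3.53%. The pericentromeric satellite unit that was also searched was in none of the 65 and in 0.0541% of all coding promoters. Sequence around the distal summits was not used here.

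Several reproducible regions far from coding gene ends lay at other starts. NFIB, a nuclear factor I gene whose span held 8 regions, more than any other gene on the chromosome, had summits at offsets of -382 and -451 bp from an internal start in replicates 2 and 1, with scores of 7.27 and 12. The long noncoding RNA MIR31HG, host of the miR-31 locus, had summits of replicates 1 and 3 at chr9:21559502-21559695, with scores of 5.22 and 5.5. The let-7 host MIRLET7A1HG had summits of replicates 2 and 3 at chr9:94166504-94166596, with 3.79 and 10.9, and the MIRLET7A1 hairpin lies 9.41 kb away. Counting every RefSeq start, 15 of 20 reproducible regions on 9p, 8 of 23 in the pericentromere and 18 of 24 on 9q lay within 1 kb of one.

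By gene, 189 of the 778 coding genes of chromosome 9 (24.3%) had at least 1 summit no further than 5 kb from an end, against 17.8% of all 20037 coding genes. A reproducible region lay that near for 41 (5.27%), against 2.97% of all. Without replicate 3 these counts were 69 and 19, and without replicates 1 and 2 the second was 24 and 22. The arms differed, with 79 of 205 genes (38.5%) on 9p and 100 of 535 (18.7%) on 9q having any summit, and 10 of 38 (26.3%) in the pericentromere. The 9q share was near the background. Reproducible regions were near 17 genes of 9p (8.29%), 2 of the pericentromere (5.26%) and 22 of 9q (4.11%).

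Among the 22 genes around JAK2 on distal 9p, 9 had a summit within 5 kb (40.9%), and UHRF2 and RANBP6 had a reproducible region (9.09%). These shares were near the 38.5% and 8.29% of all 9p coding genes, and stood at 17.8% and 2.97% over all coding genes. The region counted for RANBP6 lay at the BRD10 start, with its replicate 2 summit 2742 bp from a RANBP6 end. At the RANBP6 start itself there was a replicate 3 summit alone, at 56 bp with a score of 3.13. JAK2, the kinase of interferon and cytokine receptors, had summits of replicate 2 at 898 bp from a gene end, scoring 3.69, and of replicate 3 at 556 bp, scoring 9.64. These summits were over 200 bp apart, at offsets of 16 and -140 bp from the nearest JAK2 start site. CD274, which encodes the checkpoint ligand PD-L1, had a replicate 3 summit 4 bp downstream of its start site, at position 5450546, with a score of 4.32. The nearest summits of replicates 1 and 2 were 297600 and 47930 bp from the gene's ends. Of the 21 genes of the interferon and CDKN2A list, also on 9p, 5 had a summit (23.8%), against 38.5% of all 9p coding genes. A reproducible region lay near 2, CDKN2B and DMRTA1 (9.52%), against 8.29% of all 9p coding genes. CDKN2A itself had 3 regions in its span, each of 1 library. IFNA21 was the interferon gene nearest to a summit, 3286 bp from one of replicate 3.

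The lists below are read against the shares given further above. These are 24.3% with a summit and 5.27% with a reproducible region for chromosome 9, and 17.8% and 2.97% over all coding genes. The 21 innate immune and interferon pathway genes included 7 with a summit (33.3%, exact 95% interval 14.6 to 57.0) and 0 with a reproducible region. RIGI, the cytosolic RNA sensor, had a replicate 1 summit at 134 bp with a score of 2.54, the lowest of that library on 9p. IL11RA had replicate 3 at 82 bp and CARD9, an adaptor of fungal sensing, replicate 3 at 342 bp. None of the 7 therefore rests on a position that 2 libraries shared. The 22 genes of RNA processing, translation, proteasome and respiratory chain had 11 with a summit (50%) and 5 with a reproducible region (22.7%, exact 95% interval 7.82 to 45.4), among them PSMD5, HNRNPK, SNAPC3 and EXOSC3. Of the 4 ribosomal protein genes, RPS6 and RPL7A had a summit. Of 25 cancer genes 11 had a summit (44%) and 1, FANCC, a reproducible region. The replicate 1 summit of GNAQ, a G protein subunit gene, lay at 31 bp and that of NR4A3, an orphan nuclear receptor gene, at 328 bp, while NTRK2 and VCP had replicate 3 at 121 and 210 bp. Of 26 developmental genes 2 had a summit within 5 kb of an end (7.69%), NR4A3 and TGFBR1, the TGF-beta type I receptor gene. The TGFBR1 summit lay 2032 bp from the gene end and 104 bp downstream of a start site. NFIL3 and NFIB, not counted by gene ends, had summits within 1 kb of a start site. In the cancer list the same holds for NFIB and for ABL1 (replicate 1, -368 bp, score 6.32). It also holds for KANK1 in the list around JAK2 (replicate 3, 240 bp, 3.69). None of the 25 olfactory receptor genes had a summit within 5 kb of an end, which allows a share of up to 13.7%.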

How the data were processed

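The 3 SOX4 ChIP-seq libraries of BT549 came as lists of 1 bp summits that the authors called per library. The submitters' processing notes list MACS2, BWA and SAMtools, with versions and settings not given in the sources used here. The deposited summit scores are −log10 values, of either the p or the q, which no source separates. The notes name hg19, but 41 of the 79 sequence names in the lists carry KI270 identifiers of GRCh38, and positions were read as GRCh38. Depth is unknown.

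Summits were counted by arm, shared within 200 bp of another library, and joined into regions at gaps of at most 200 bp, with a region of at least 2 libraries called reproducible. Genes (20037 coding, RefSeq GRCh38.p14) gave distances to either end, and the RefSeq promoter table gave start sites, which 677 of the 778 chromosome 9 coding genes had. Exons, introns and UTRs were not told apart. Differences between arms were tested over libraries with an exact two-sided sign-flip permutation test, and shares carry exact 95% Clopper-Pearson intervals (Python 3.11.15, pandas 2.3.3, SciPy 1.17.1, Biopython 1.88 for alignment). The step was checked on simulated data. Named were up to 8 regions of all 3 libraries per part by worst rank, up to 12 reproducible gene-end regions per arm by libraries and then distance, up to 6 members per gene list, the 3 fullest 1 Mb windows per part, genes holding 3 or more regions, and 6 promoters; duplicated families, the CGCG element and noncoding starts were chosen after values were seen. The members, gene lists and tests were chosen with earlier results of these data known. Alternatives changed the score threshold, list length, sharing distance, arm bounds and gene distance, and left out each library.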

Additional observations from a re-analysis of the deposited data

How the results depend on the processing

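Of 88 values of 12 results under the alternatives, 63 were differences that kept their mean direction, shares that moved by less than 1 SD, or counts that moved by at most 1.5 times; 24 counts moved further and 1 difference reversed. The mean difference between 9p and 9q in summits per Mb was 0.251 to 1.47, but with summits at or above the median score, and with the 1000 highest scores, replicate 2 had 9q above 9p (-0.0558 per Mb; exact permutation p = 0.5 for each). For distal summits the mean was 0.129 to 1.13, smallest with the 1000 highest scores. It was 0.797 for summits over 1 kb from both gene ends and start sites. With start sites in place of gene ends, the difference in the share near them was -19.5 points. Both of these alternatives were added after the data were seen. The mean differences in the share at gene ends (-29.7 to -13.0 points) and in the shared part (-24.3 to -4.60) stayed negative, although with the 1000 highest scores replicate 3 had 13.1 points more of its summits at gene ends on 9p. The difference in median score ranged from -0.359 to 0.284 with 1 library left out, and reversed to 0.284 without replicate 2. With summits at or above the median score of their list, reproducible regions fell to 35 on the chromosome, 8 on 9p and 11 in the pericentromere, genes with a summit within 5 kb to 105 and with a reproducible region to 19. With the 1000 highest scores of each list these were 27, 7, 9, 76 and 18, and 11 regions on 9q. Leaving out each library in turn gave 25 to 45 reproducible regions on the chromosome, 9 to 12 on 9p, 7 to 17 in the pericentromere and 9 to 17 on 9q, and 19 to 24 genes with a reproducible region, where fewer libraries can share. Genes with a summit were 69 to 185, the 69 being without replicate 3, the longest list. Without depth or a control library, absence from a list was not read as absence of binding.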
